A study of Mus musculus with 4 samples.

Results

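The complement genes C1qa, C1qb, C1qc, C2, C3, C4b, C6, Cfb, Cfp and C5ar1 were followed through 4 droplet single-cell RNA-seq libraries of mouse liver; they are 10 of the 32285 genes in the count matrices and were found by symbol, 10 of 10. The livers came from male C57BL/6J mice. The NCD library (n = 1) was from a mouse on normal chow given distilled water by gavage. The HFD libraries (n = 2) were from mice on a high-fat diet given distilled water, the diet being a model of non-alcoholic fatty liver disease (NAFLD). The JQF library (n = 1) was from a mouse on the same diet given JQF by gavage over the last weeks of feeding. JQF, the Jiangtang Qingre Formula, is a herbal mixture of granules and a decocted part. All livers were perfused, digested and cleared of red blood cells and dead cells. The labels call the material immune cells and give a haematopoietic stem cell line, whereas the libraries held hepatocytes, endothelial cells, epithelial cells and fibroblasts beside leukocytes.

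Complement is a cascade of plasma proteases and receptors. C1q, assembled from the products of C1qa, C1qb and C1qc, recognises bound antibody and dying cells and starts the classical pathway; C4 and C2 form its C3 convertase, factor B (Cfb) forms that of the alternative pathway, properdin (Cfp) stabilises the latter, C3 is the central thioester protein that both cleave, C6 joins the membrane attack complex, and C5ar1 is the receptor for the anaphylatoxin C5a. Hepatocytes are the textbook source of most plasma complement, while tissue macrophages are the main source of C1q and phagocytes carry C5ar1.

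The coordinates of the members were those of GENCODE M21 on GRCm38. The C1q genes lie side by side on the minus strand of chromosome 4, with C1qb at 136880129 to 136886187, C1qc at 136889804 to 136893065 and C1qa at 136895917 to 136898803. C4b (34728380 to 34743882), Cfb (34856374 to 34862518) and C2 (34862604 to 34898265) lie on the minus strand of chromosome 17 within the major histocompatibility complex, and C3 lies on the same chromosome at 57203970 to 57228136. C6 is on the plus strand of chromosome 15 at 4727175 to 4814967, Cfp on the minus strand of chromosome X at 20925454 to 20931555, and C5ar1 on the minus strand of chromosome 7 at 16246743 to 16259540. A read-through gene, Gm20547, overlaps C2 and Cfb on their own strand but is not among the genes counted. C4b has a near-identical neighbour, C4a, so reads of C4b may have been split or dropped by the counting.

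Promoter windows of 300 bases, 250 before and 50 after the RefSeq start (GRCm38.p6), were at hand for 6 members: C1qb, C1qc, C3, C6, Cfp and C5ar1. Both strands of each were searched for GAGGAA (an ETS or PU.1-type core), TGCTGA (a MAF half-site), TTGCNNAA (C/EBP) and TATAAA. Of all 32851 windows, 28.3% held GAGGAA, 19.5% TGCTGA, 10.8% TTGCNNAA and 13.6% TATAAA. The windows of the C1q pair are shown because these genes moved together over cell types, that of C3 because its level changed in neutrophils, and that of C6 because its level marked a subset of Kupffer cells; they run 5′ to 3′ along the gene, and capitals mark a match on either strand. C1qb is chr4:136886151-136886450 (minus), C1qc chr4:136892865-136893164 (minus), C3 chr17:57228087-57228386 (minus) and C6 chr15:4726960-4727259 (plus).
C1qb: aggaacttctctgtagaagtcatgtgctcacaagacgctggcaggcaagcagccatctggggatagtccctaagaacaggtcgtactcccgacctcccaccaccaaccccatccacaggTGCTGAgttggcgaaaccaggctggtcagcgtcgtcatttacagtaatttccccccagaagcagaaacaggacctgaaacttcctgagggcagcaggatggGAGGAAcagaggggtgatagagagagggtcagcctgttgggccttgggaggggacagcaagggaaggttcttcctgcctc
C1qc: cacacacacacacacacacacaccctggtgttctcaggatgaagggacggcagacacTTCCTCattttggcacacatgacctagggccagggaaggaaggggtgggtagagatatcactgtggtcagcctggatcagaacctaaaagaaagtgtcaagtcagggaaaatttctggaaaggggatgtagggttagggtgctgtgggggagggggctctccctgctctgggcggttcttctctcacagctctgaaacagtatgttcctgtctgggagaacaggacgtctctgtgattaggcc
C3: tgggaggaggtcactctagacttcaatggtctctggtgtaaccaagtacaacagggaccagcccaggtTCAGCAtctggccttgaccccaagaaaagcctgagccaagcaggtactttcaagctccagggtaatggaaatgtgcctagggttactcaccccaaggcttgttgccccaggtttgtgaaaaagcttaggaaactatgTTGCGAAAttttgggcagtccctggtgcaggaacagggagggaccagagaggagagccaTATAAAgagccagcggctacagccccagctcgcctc
C6: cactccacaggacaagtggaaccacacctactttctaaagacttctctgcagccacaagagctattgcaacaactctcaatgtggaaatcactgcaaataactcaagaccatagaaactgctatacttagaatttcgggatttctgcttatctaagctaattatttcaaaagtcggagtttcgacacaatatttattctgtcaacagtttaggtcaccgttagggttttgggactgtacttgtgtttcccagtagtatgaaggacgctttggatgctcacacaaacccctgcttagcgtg
GAGGAA was matched in C1qb, C1qc and Cfp (2 matches), TGCTGA in C1qb, C3 and C5ar1, and TTGCNNAA and TATAAA in C3. The C6 window held none of these strings. A match is only a run of letters.

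After cells with fewer than 500 genes or over 20% mitochondrial UMIs (unique molecules) were removed, 5975 cells remained in NCD, 6516 and 10259 in HFD replicates 1 and 2, and 8540 in JQF, with median UMIs per cell from 7608 to 13081. Pairs of libraries shared 12 to 27 cell barcodes. A cell was given a type when it had UMIs of at least 3 of 6 marker genes of that type and of no other lineage. None of the 10 members was a marker, but Itgax, among the other complement genes below, was a cDC2 marker. Levels are UMIs of the gene in each 1000000 UMIs of the type (CPM). The gate held 91, 654, 2280 and 447 macrophages in the order NCD, HFD replicate 1, HFD replicate 2 and JQF, the order used throughout. In NCD, 1845 of 5975 cells (30.9%) carried markers of several lineages and were left out, against 5.60%, 10.3% and 10.0% in the other libraries, and those NCD cells held 54.9% of all C1qa UMIs. Csf1r, Pecam1 and Alb, which the gate did not use, each had their highest level in macrophages, endothelial cells and hepatocytes, respectively, in every library. RNA free in the suspension was measured in uncalled barcodes of up to 100 UMIs. The level it should give in a type, called the expected free RNA level here, was the free level of the gene scaled by how much of 8 hepatocyte transcripts (Alb and others) the type carried. C1qa made up 152, 559, 1282 and 303 CPM of the free RNA, and macrophages 1.52%, 10.0%, 22.2% and 5.23% of the cells. Both were lowest in NCD and highest in HFD replicate 2.

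Outside hepatocytes and epithelial cells, where the scaling cannot be used, 203 of 470 levels of a member in a type and library lay above the expected free RNA level with their whole 95% Poisson interval, which covers counting error only. All 10 members did so in macrophages in 4 of 4 libraries. In neutrophils C3, Cfp and C5ar1 did so in 4 of 4, in endothelial cells C2 and Cfb, and in cDC2 cells C1qb, C1qc, C3, Cfp and C5ar1.

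**Figure D1:**
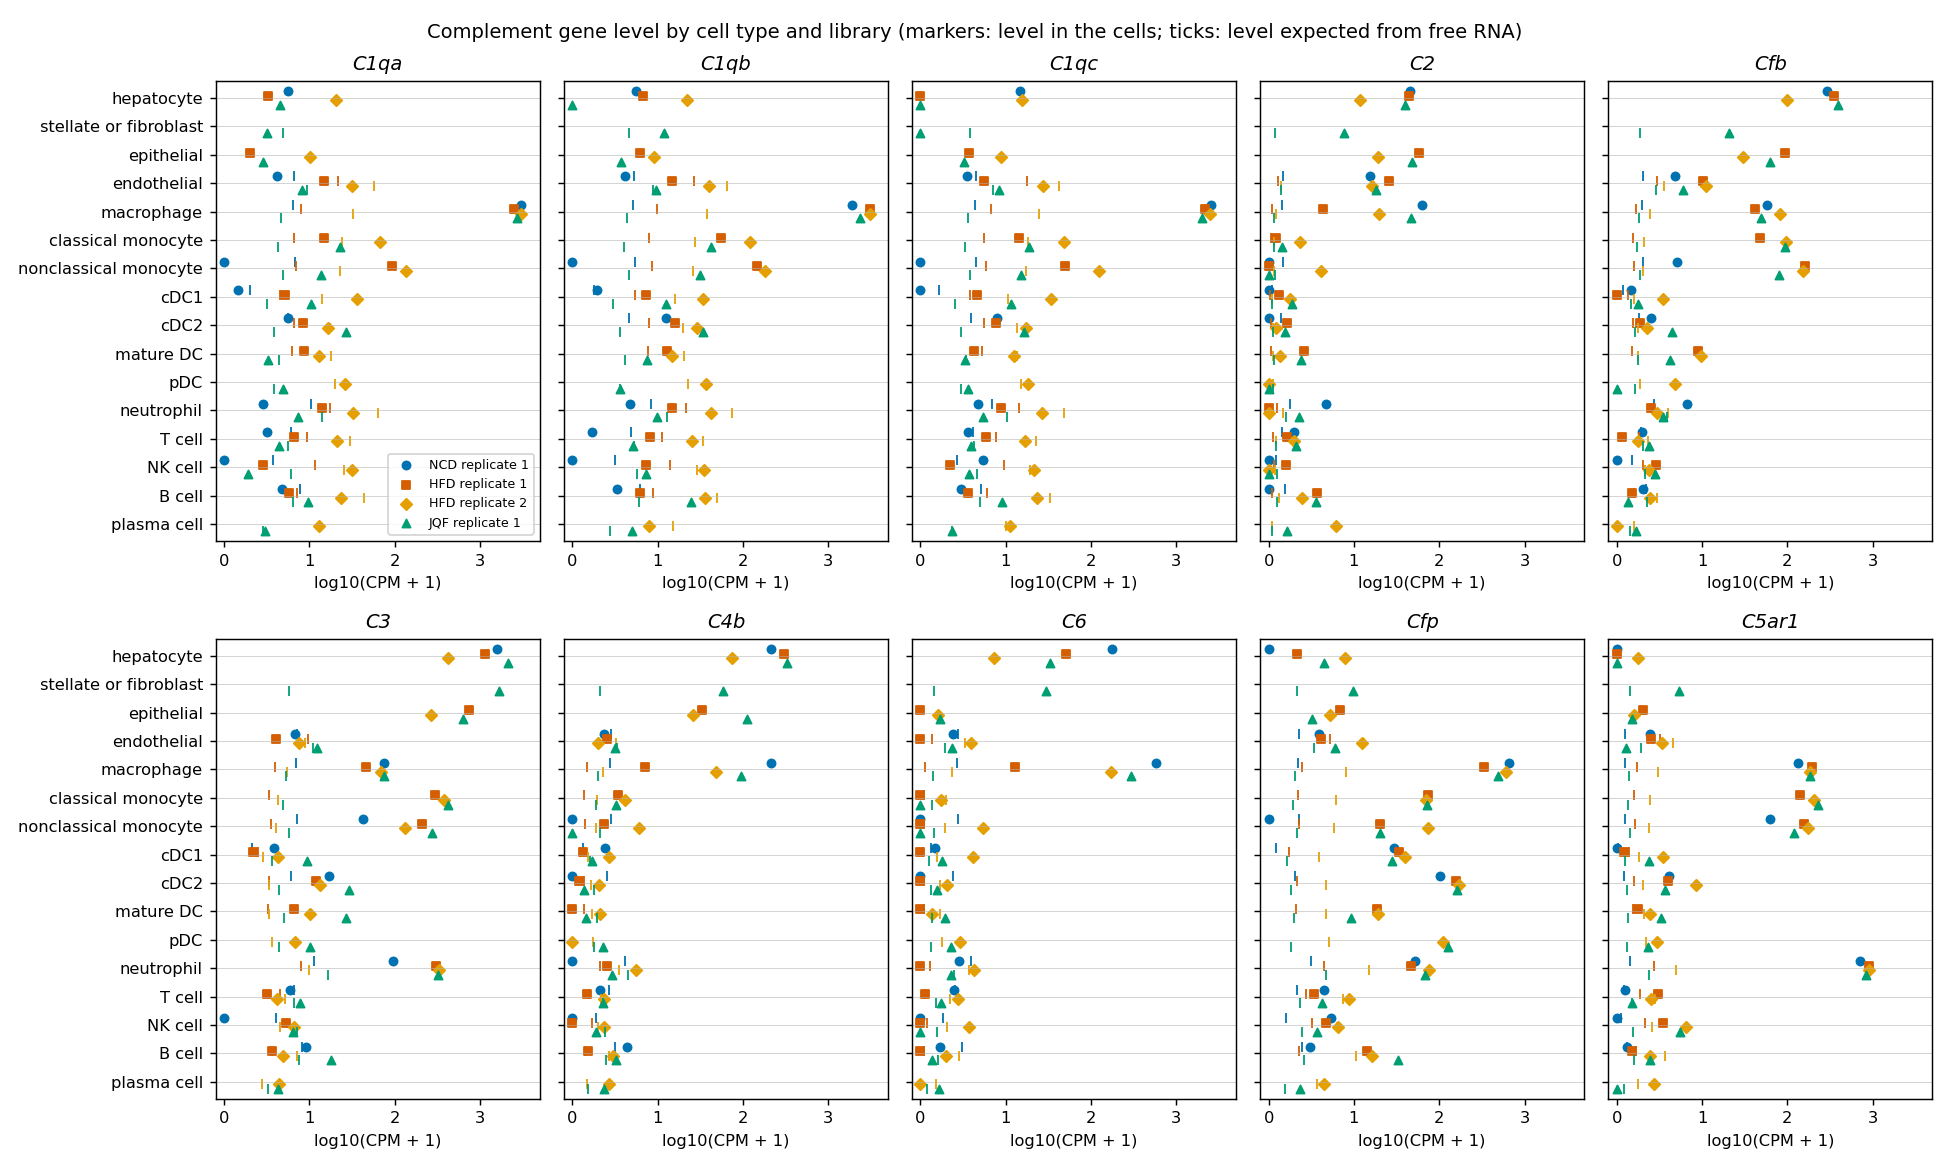
Level of each of the 10 members, as log10(CPM + 1) on the horizontal axis, in 16 marker-gated cell types, with 1 marker for each library of at least 20 cells of the type; vertical ticks give the level expected from free RNA. C1qa, C1qb and C1qc stand apart in macrophages, C5ar1 in neutrophils, and C3 reaches its highest levels in hepatocytes and fibroblasts.

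The C1q genes were macrophage genes in every library. C1qa stood at 2976, 2471, 3038 and 2695 CPM in macrophages, C1qb at 1887, 3064, 3061 and 2325 CPM, and C1qc at 2529, 2133, 2493 and 2004 CPM. The HFD mean was 2755 ± 401 CPM for C1qa (SD, n = 2), so the NCD and JQF values lay inside the HFD spread, whereas for C1qb both were below both HFD libraries. These levels were 96.1 to 748 times the expected free RNA for C1qa. All of C1qa, C1qb and C1qc were found in 91.2%, 76.0%, 84.3% and 79.6% of macrophages, and none of them in 1.10%, 12.5%, 5.35% and 11.2%.

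Within macrophages, Kupffer cells, the resident macrophages of the liver sinusoid, were told by at least 2 of Clec4f, Timd4, Cd5l and Marco, and lipid-associated macrophages by at least 2 of Trem2, Gpnmb, Spp1 and Mmp12. Kupffer cells made up 86.8%, 10.9%, 36.8% and 45.4% of macrophages. C1qa was 3150, 3701, 4182 and 4073 CPM in Kupffer cells, and 2559, 2478 and 1651 CPM in the lipid-associated macrophages of HFD replicates 1 and 2 and JQF (NCD had 2 such cells). Kupffer cells thus had the higher C1qa level in each of these 3 libraries. The number of C1qb UMIs per C1qa UMI in Kupffer cells was 0.598, 1.03, 0.851 and 0.704, lowest in NCD. In lipid-associated macrophages it was 1.28, 1.17 and 1.16. The ratio in free RNA was 0.772, 1.24, 1.15 and 0.932, in the same order of libraries as in Kupffer cells.

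The comparison of HFD with NCD asks what the diet changed, and that of JQF with HFD what the formula changed under the diet; both use the same HFD libraries and rest on the spread between those 2 libraries, which may be technical. UMIs were summed per library and type, all genes of the type were fitted in edgeR, and a gene was called at a Benjamini-Hochberg adjusted p under 0.05. In macrophages 0 of 10 members were called for HFD against NCD, where 12.7% of all genes were, and 0 of 10 for JQF against HFD, where 0.0153% were. At an unadjusted p under 0.05 there were 4 and 1 members, and DESeq2 called 1 and 0. The median log2 difference, HFD minus NCD, was -0.20 over the 10 members and 0.07 over all genes in macrophages, and 0.09 and 0.05 in Kupffer cells. C1qb was the member DESeq2 called. Its log2 difference, HFD minus NCD, was 0.76 ± 0.22 (SE; edgeR adjusted p = 0.0867), with both HFD libraries above NCD, and in Kupffer cells it was 0.96 ± 0.34 (edgeR adjusted p = 0.0802).

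In T cells, neutrophils and endothelial cells no C1q gene lay above the expected free RNA level with its whole interval in any library. In T cells C1qa was at 2.17, 5.67, 20.0 and 3.37 CPM against expected free RNA levels of 5.10, 8.33, 28.8 and 4.58 CPM, below it in 4 of 4 libraries. In neutrophils C1qa was at 1.86, 13.1, 31.4 and 6.32 CPM against 9.55, 16.6, 62.9 and 12.9 CPM. In endothelial cells it was at 3.22, 13.8, 30.2 and 7.12 CPM against 5.61, 20.5, 55.4 and 8.37 CPM. The order of the libraries in each of these types was that of the free RNA. In B cells C1qb was at 2.36, 5.30, 34.5 and 23.7 CPM against 5.17, 7.72, 49.2 and 5.11 CPM, above the expected level in JQF, where 55 of its 64 UMIs came from 5 cells. C1qc was also above it in the JQF B cells, with 8.15 against 3.93 CPM.

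edgeR called C1q genes in T cells, neutrophils and endothelial cells. In T cells 2 of 10 members were called for HFD against NCD, beside 12.8% of all genes: C1qa rose by 2.57 ± 0.74 and C1qb by 4.42 ± 0.86 log2 (adjusted p = 0.0459 and 0.00921). With multi-lineage cells given to the type with most markers, an alternative chosen after the data had been seen, these were 1.11 and 1.47 and were not called (adjusted p = 0.414 and 0.264). Over the alternatives that gave these genes an adjusted p, the C1qa call was kept in 5 of 8 and that of C1qb in 7 of 8. C1qb was at 0.725 CPM in the NCD T cells, so its difference is a fold over a level near 0. Its T cell levels were 0.184 to 0.959 times the expected free RNA. In neutrophils 3 of 6 members tested were called, beside 9.38%: C1qa rose by 3.59 ± 1.02, C1qb by 2.93 ± 0.88 and C3, described below, by 1.82 ± 0.34 log2 (adjusted p = 0.0236, 0.0311 and 0.000786). C1qa had 1, 17, 48 and 10 UMIs in neutrophils and C1qb 2, 18, 63 and 14, so these are folds over an NCD level near 0 by genes that passed the count filter through HFD. The C1qa and C1qb calls were kept in 6 and 5 of the 7 alternatives that tested them. DESeq2 gave only 3 members an adjusted p in neutrophils, C1qa and C1qb not among them, and called C3. In endothelial cells 3 of 10 were called, beside 15.1%: C1qa rose by 2.77 ± 0.49, C1qb by 3.11 ± 0.45 and C1qc by 2.79 ± 0.52 log2 (adjusted p = 6.13e-07, 4.47e-10 and 2.66e-06). The gate held 2323, 94, 940 and 475 endothelial cells. Over the alternatives that tested them, the calls of C1qa and C1qb were kept in 8 of 8. That of C1qc was kept in 7 of 8, DESeq2 being the exception. For JQF against HFD, C1qa fell by 1.78 and C1qb by 1.82 log2 in endothelial cells (SE 0.51 and 0.46, adjusted p = 0.0411 and 0.0104), the 2 of 10 called there beside 1.32% of all genes. These 2 calls were kept in 3 and 5 of 8 alternatives, and DESeq2 made neither. Without HFD replicate 2 the endothelial C1qc difference, HFD minus NCD, was 0.70 on 3 UMIs. The values without HFD replicate 2 were also smaller for C1qa and C1qb, at 1.92 and 1.96 in endothelial cells, 1.32 and 3.22 in T cells and 2.83 and 1.95 in neutrophils, and for JQF minus HFD they were -0.92 and -0.67 in endothelial cells. With the expected free RNA subtracted from the counts, too few C1q UMIs were left in T cells, neutrophils and endothelial cells for any of these genes to be tested. That alternative is therefore not among those counted above for these genes.

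**Figure D2:**
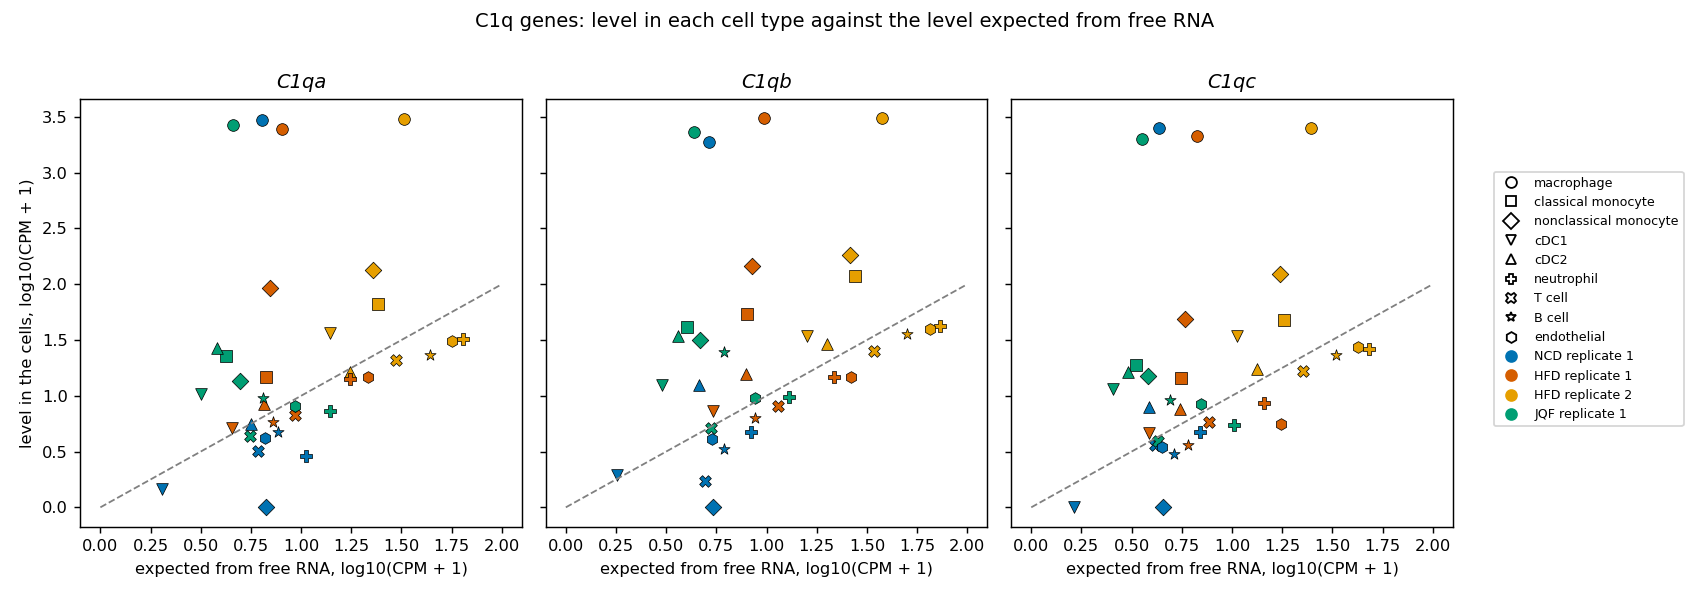
Level of C1qa, C1qb and C1qc in the cells, as log10(CPM + 1), against the level expected from free RNA on the same scale, for 9 cell types (marker shape) in 4 libraries (colour); the dashed line marks equality. Macrophages lie far above the line, monocytes above it except in NCD, and T cells, neutrophils and endothelial cells near or under it, with HFD replicate 2 furthest to the right.

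Monocytes and dendritic cells lay between these. Monocytes and conventional dendritic cells were gated in the same lineage as macrophages, so their doublets with macrophages were not left out. What part such doublets had in these levels was not tested. In nonclassical monocytes C1qb was at 0, 146, 181 and 30.4 CPM, but 100 of the 106 UMIs of HFD replicate 1 and 202 of the 289 of HFD replicate 2 came from the 5 highest cells. In classical monocytes C1qb was at 53.6, 119 and 40.8 CPM in HFD replicates 1 and 2 and JQF, 4.47 to 13.5 times the expected free RNA (NCD had 16 cells and is not given). In cDC2 cells, the conventional dendritic cells that serve CD4 T cells, 2 of 7 members tested were called for JQF against HFD, beside 2.19% of all genes, and 0 of 7 for HFD against NCD, beside 25% (1 of 7 at an unadjusted p under 0.05, DESeq2 0). C1qa was at 4.58, 7.50, 15.5 and 25.9 CPM in cDC2 cells, a difference, JQF minus HFD, of 1.31 ± 0.33 log2 (edgeR adjusted p = 0.0482). The call was kept in 3 of 9 alternatives, and DESeq2 called 0 members in cDC2 cells for JQF against HFD. In JQF, 111 of the 137 C1qa UMIs sat in 5 of 317 cDC2 cells. The 6 JQF cDC2 cells with 5 or more C1qa UMIs had a mean of 3 of the 6 macrophage markers, against 1.07 in the others. With a lead of 2 markers required of the cDC2 gate, the difference was 0.18 log2 and was not called. With the expected free RNA subtracted it was 4.63 log2, a fold over HFD counts that the subtraction brings near 0 (15.5 CPM against 16.6 expected in HFD replicate 2, and 7.50 against 5.56 in HFD replicate 1). It was 0.86 without HFD replicate 1 and 1.96 without HFD replicate 2.

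C6, C4b and C2 followed a part of the Kupffer cells. C6, a component of the membrane attack complex, was at 655, 80.2, 457 and 648 CPM in Kupffer cells. C4b, the mouse C4 gene of the classical pathway, was at 223, 31.3, 121 and 199 CPM there, and C2, its partner protease, at 71.2, 1.36, 48.2 and 99.9 CPM. HFD replicate 1 was lowest for all of these, and NCD and JQF were above both HFD libraries. The 71 Kupffer cells of HFD replicate 1 also had little Timd4 (24.5 CPM against 282 to 561 in the other libraries), Marco (17.7 against 448 to 1621) and Cd163 (10.9 against 252 to 556), while their Clec4f, at 2485 CPM, lay between those of NCD (2114) and HFD replicate 2 (3322).

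Kupffer cells were then divided by whether they held a UMI of Timd4, the phosphatidylserine receptor that marks long-resident Kupffer cells; the division was chosen after these levels had been seen and carries no test. Timd4 was detected in 70 of 79 (88.6%), 4 of 71 (5.63%), 384 of 839 (45.8%) and 161 of 203 (79.3%) of them. Cells with a Timd4 UMI had C6 at 687 CPM in NCD, 746 in HFD replicate 2 and 714 in JQF. Cells without had 120, 154 and 248 CPM in the same libraries, and 70.6 CPM in HFD replicate 1. The 4 Timd4-positive cells of HFD replicate 1 had 199.5 CPM on 11 UMIs. The C6 level in Timd4-positive cells was thus close in NCD, HFD replicate 2 and JQF, and lower in HFD replicate 1 (Poisson interval 99.6 to 357 CPM). The share of Kupffer cells with Timd4 was 88.6% in NCD and 79.3% in JQF, against 45.8% in HFD replicate 2 and 5.63% in HFD replicate 1. What part this share had in the C6 levels was not tested.

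For C4b the Timd4-positive cells had 232, 189 and 218 CPM in NCD, HFD replicate 2 and JQF, and the Timd4-negative cells 74.8, 49.6 and 81.7 CPM. For C2 they had 74.6, 86.8 and 113 CPM against 15, 7.84 and 20.4 CPM. The 9 Timd4-negative cells of NCD held 5 UMIs of C4b and 1 UMI of C2. Their C2 interval, 0.379 to 83.4 CPM, spans the Timd4-positive level of NCD. In HFD replicate 1 the 4 Timd4-positive cells had C4b at 54.4 CPM on 3 UMIs and no C2 UMI. Its 67 Timd4-negative cells had 29.4 CPM of C4b and 1.47 CPM of C2 (1 UMI), below the Timd4-negative cells of every other library. The Poisson interval of that C4b level was 18.0 to 45.4 CPM. It overlapped those of NCD (24.3 to 175) and HFD replicate 2 (43.2 to 56.7), but not that of JQF (54.3 to 118). For C6 the Timd4-negative intervals of HFD replicate 1 (52.0 to 93.6 CPM), HFD replicate 2 (143 to 167) and JQF (198 to 307) lay apart. That of NCD (51.7 to 236) overlapped each of them. C1qa differed less between cells with and without a Timd4 UMI, at 3221, 4658 and 4257 CPM against 1975, 3683 and 2954 CPM. Cells with a Timd4 UMI were deeper, with median UMIs of 14164, 9669 and 11505 against 4795, 7552 and 5741, and what part depth had in the division was not tested.

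**Figure D3:**
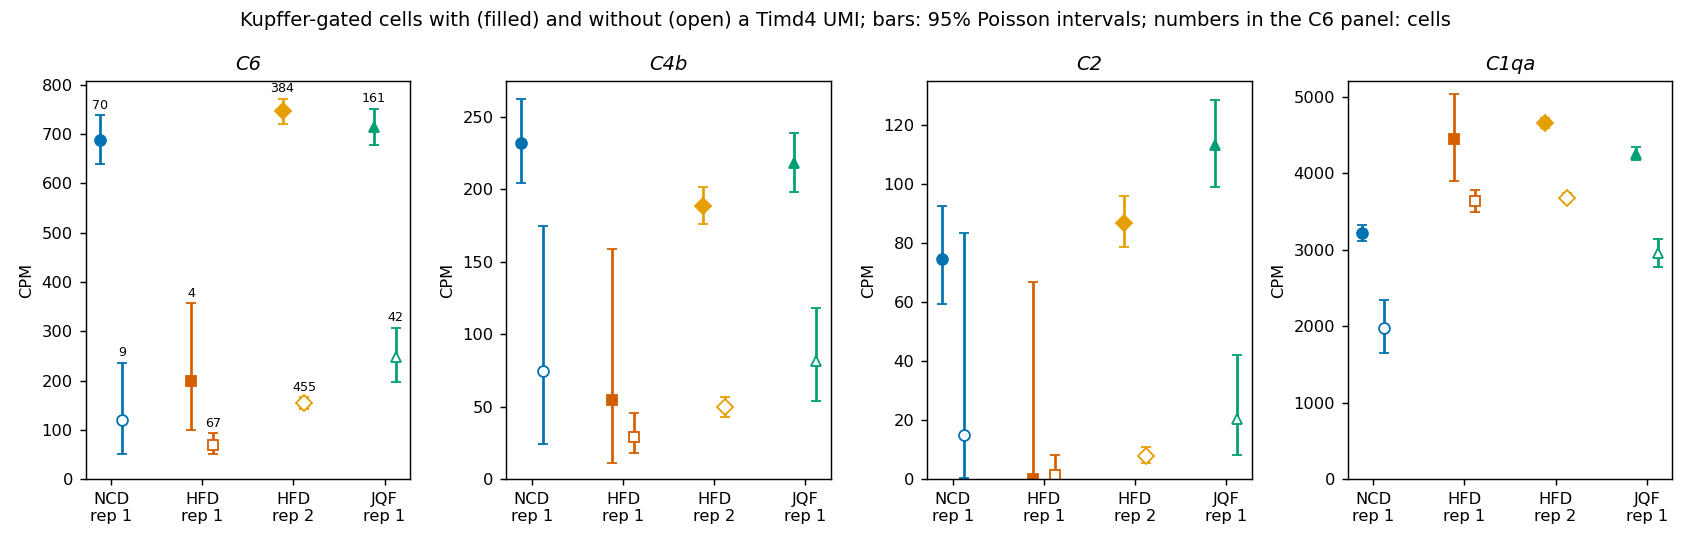
CPM of C6, C4b, C2 and C1qa in Kupffer cells with (filled) and without (open) a Timd4 UMI in each library, with 95% Poisson intervals that cover counting error only; the numbers over the C6 points are cells. C6 is near 700 CPM in Timd4-positive cells of NCD, HFD replicate 2 and JQF, and under 250 CPM in the Timd4-negative cells of every library.

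In the fit of the Kupffer cells 2 of 10 members were called for HFD against NCD, beside 8.62% of all genes: C4b fell by 1.41 (SE 0.41) and C3 by 1.39 (SE 0.37) on the log2 scale (edgeR adjusted p = 0.0321 and 0.0216). DESeq2 called 0 of the 7 members to which it gave an adjusted p, and over the alternatives the C4b call was kept in 6 of 9 and that of C3 in 5 of 8, its difference being -0.85 with 2 UMIs required per marker. Without HFD replicate 1 the C4b difference was -0.88, and without HFD replicate 2 it was -2.84, on values with no test. C6 differed by -1.24 ± 0.51 and C2 by -1.07 ± 0.52 log2 (adjusted p = 0.141 and 0.227), and without HFD replicate 1 by -0.52 and -0.56. For JQF against HFD 0 of 10 were called, beside 1.15%, with 5 at an unadjusted p under 0.05 and 0 called by DESeq2. The differences, JQF minus HFD, were 1.56 ± 0.47 for C2, 1.24 ± 0.40 for C4b, 1.22 ± 0.51 for C6 and 0.83 ± 0.31 for C5ar1 (edgeR adjusted p = 0.134, 0.176, 0.378 and 0.28).

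Over all macrophages, of which Kupffer cells were a very different share in each library, the same genes spread further. C6 was at 575, 11.8, 170 and 289 CPM, C4b at 215, 6.08, 47.0 and 94.8 CPM, and C2 at 62.5, 3.38, 18.6 and 45.1 CPM. The log2 differences, HFD minus NCD, were -2.56 ± 1.23, -2.87 ± 0.96 and -2.31 ± 0.87 (edgeR adjusted p = 0.214, 0.109 and 0.139). Those for JQF minus HFD were 1.65 ± 1.22, 1.78 ± 0.93 and 1.92 ± 0.76 (adjusted p = 0.678, 0.592 and 0.504). As a ratio, though not as a difference in CPM, the HFD libraries were further from each other than HFD replicate 2 was from NCD for each of these genes.

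In hepatocytes, of which the gate held 56, 43, 159 and 23, C4b was at 213, 301, 73.4 and 324 CPM, C6 at 173, 50.3, 6.18 and 31.7 CPM, and C2 at 43.9, 43.5, 10.8 and 38.8 CPM. No test was made on so few cells. HFD replicate 2 was the lowest library for C2, C3, C4b, C6 and Cfb in hepatocytes, and its gated hepatocytes also carried less of the hepatocyte transcripts: Alb was at 8269 CPM there against 23254 to 45823 CPM in the others, Apoa1 at 1197 against 4895 to 6528 CPM, and the 8 hepatocyte transcripts together at 25104 against 63425 to 85502 CPM. Their part in these levels was not tested. Endothelial cells held C2 at 14.6, 24.6, 15.5 and 17.0 CPM, 30.9 to 82.5 times the expected free RNA, while their C4b and C6 levels were not above it in any library. C2 was also present in epithelial cells, at 56.4, 18.1 and 47.5 CPM in HFD replicates 1 and 2 and JQF.

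C3, the protein on which all pathways converge, was highest in hepatocytes and fibroblasts. Hepatocytes had 1580, 1145, 416 and 2117 CPM, the 34 stellate cells or fibroblasts of JQF 1666 CPM, and epithelial cells 742, 266 and 629 CPM in HFD replicates 1 and 2 and JQF. The epithelial cells also carried the hepatocyte transcripts at 31.2% to 109% of their free RNA level. Classical monocytes had 294, 373 and 415 CPM in the same libraries and nonclassical monocytes 41.3, 205, 132 and 268 CPM. Over all macrophages it was 74.3, 44.5, 67.9 and 73.8 CPM.

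In neutrophils C3 was at 93.2, 299, 329 and 322 CPM, 8.98 to 42.6 times the expected free RNA. NCD lay below every other library, whose Poisson intervals did not reach it (69.2 to 123 CPM in NCD and 270 to 359 CPM in HFD). This was the call in neutrophils already given, 1.82 ± 0.34 log2 (edgeR adjusted p = 0.000786), and it was 1.77 and 1.87 without HFD replicate 2 and 1. The share of neutrophils with a C3 UMI, each cell thinned to 3000 UMIs, was 19.1% of 89 cells in NCD (exact 95% interval 11.5% to 28.8%), 40.3% of 231 and 41.9% of 253 in HFD and 38.6% of 303 in JQF; without thinning it was 33.3%, 43.4%, 42.4% and 44.1%. The 5 highest cells held 18 of 50 UMIs in NCD and at most 17.3% of the UMIs elsewhere. For comparison, T cells had C3 at 2.17 to 6.75 CPM, 0.616 to 1.22 times the expected free RNA. The NCD neutrophils also had less S100a9 (17582 against 26313 to 34706 CPM elsewhere) and more Il1r2 (3006 against 1403 to 2242 CPM). Their Csf3r was close to the others (2381 against 2224 to 2288 CPM). What part such differences had in the C3 change was not tested. JQF did not differ from HFD by a call in neutrophils, where 0 of 6 members were called (3 at an unadjusted p under 0.05, DESeq2 0), beside 0.247% of all genes.

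In Kupffer cells, on the other side, C3 was at 73.8, 10.9, 35.2 and 15.6 CPM and fell with HFD, as given. Of the 87 UMIs in NCD, 67 came from 5 of the 79 cells, and the highest cell alone had 38. Without HFD replicate 2 the difference was -2.76, and without HFD replicate 1 it was -1.07. Lipid-associated macrophages had C3 at 38.2, 83.7 and 127 CPM in HFD replicates 1 and 2 and JQF, above the Kupffer cells of the same libraries. In cDC2 cells C3 was at 16.0, 10.9, 12.5 and 28.3 CPM, and rose by 1.42 ± 0.24 log2 for JQF against HFD (edgeR adjusted p = 0.00409). The call was lost in 4 of 9 alternatives, DESeq2 among them, and with a lead of 2 markers the difference was 0.79 log2. Of the 150 JQF UMIs, 107 came from 5 cells. In thinned cDC2 cells the share with a C3 UMI was 3.57%, 2.88%, 3.18% and 3.51%, with the libraries close together.

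**Figure D4:**
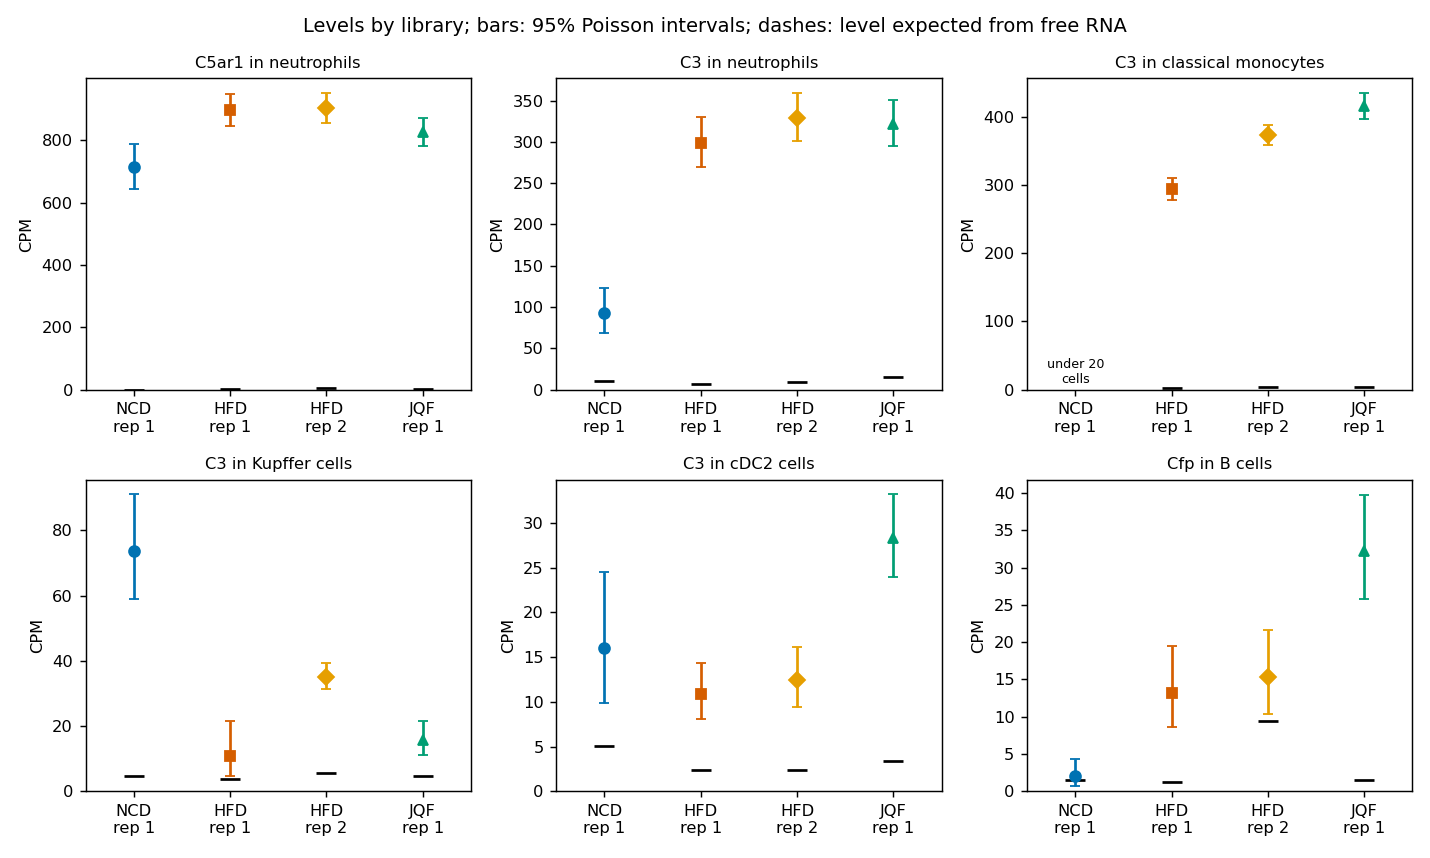
CPM by library of C5ar1 in neutrophils, C3 in 4 cell types and Cfp in B cells, with 95% Poisson intervals that cover counting error only; black dashes are the expected free RNA level. C3 in neutrophils is at 93.2 CPM in NCD and between 299 and 329 CPM in the other libraries, and C5ar1 lies between 714 and 902 CPM in all of them.

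Factor B is the protease of the alternative pathway. Unlike C3, Cfb was not above the expected free RNA in neutrophils in any library, with 1.54 to 5.59 CPM, and was above it in endothelial cells in 4 of 4, with 3.85 to 10.1 CPM. Cfb was at 289, 350, 97.4 and 388 CPM in hepatocytes, at 56.5, 41.2, 80.6 and 47.9 CPM in macrophages, and at 46.9, 95.1 and 92.9 CPM in the classical monocytes of HFD replicates 1 and 2 and JQF. In nonclassical monocytes it was 4.13 CPM on 1 UMI in the 22 NCD cells, 159 and 152 CPM in HFD and 78.4 CPM in JQF. The Poisson interval of NCD, 0.104 to 23.0 CPM, lay below those of the others, but the type had too few NCD cells for the test. That interval covers counting error only. The share of thinned cells with a Cfb UMI was 0% in NCD (exact interval 0% to 15.4%). It was 18.3% (10.6% to 28.4%) and 19.5% (13.6% to 26.5%) in HFD and 11.1% (4.59% to 21.6%) in JQF. The NCD interval, on 22 cells, overlapped each of these. Overlap does not show that the shares were alike, and their difference was not tested. In Kupffer cells Cfb was 62.7, 91.1, 83.4 and 47.3 CPM.

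Properdin was highest in macrophages, followed by cDC2 cells and plasmacytoid dendritic cells. Cfp was at 654, 334, 606 and 482 CPM in macrophages, where NCD was above both HFD libraries and JQF between them (HFD mean 470 ± 192 CPM, SD, n = 2), and at 691, 857, 1048 and 921 CPM in Kupffer cells. In cDC2 cells it was 100, 155, 171 and 162 CPM, in cDC1 cells 28.4, 33.0, 38.2 and 26.7 CPM, and in plasmacytoid dendritic cells 109 and 124 CPM in HFD replicate 2 and JQF. Classical monocytes had 72.4, 69.7 and 71.2 CPM in HFD replicates 1 and 2 and JQF, 13.6 to 75.8 times the expected free RNA. Neutrophils, which store properdin in granules, had 50.3, 46.1, 75.9 and 66.4 CPM. In B cells 1 of 5 members tested was called for HFD against NCD, beside 14.5% of all genes: Cfp was at 2.02, 13.2, 15.3 and 32.2 CPM and rose by 2.71 ± 0.49 log2 (edgeR adjusted p = 0.0217). The call was lost in 3 of 8 alternatives (adjusted p up to 0.267), and DESeq2 gave no member an adjusted p there. That rests on 6 UMIs in NCD and 25 and 31 in HFD, 17 of the 25 being in 5 cells, and the expected free RNA level in HFD replicate 2 was 9.47 CPM. For JQF against HFD 0 of 5 were called in B cells (2 at an unadjusted p under 0.05, DESeq2 0), beside 0.0925%. In cDC1 cells 0 of 9 members tested were called for HFD against NCD, beside 12.8%, and 0 of 9 for JQF against HFD, beside 0% (1103 of all genes had an unadjusted p under 0.05 and DESeq2 called 19). Among the members 0 and 1 had an unadjusted p under 0.05, and DESeq2 called 1 (C1qb) and 0. In T cells 0 of 10 were called for JQF against HFD, beside 2.1% (4 at an unadjusted p under 0.05, DESeq2 0).

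C5ar1, the C5a receptor that draws phagocytes to sites of complement activation, was a gene of neutrophils first and monocytes and macrophages next. Neutrophils had 714, 897, 902 and 826 CPM, and 82.0%, 85.7%, 88.5% and 84.5% of thinned neutrophils had a UMI. NCD was the lowest and the HFD libraries, at 899 ± 3.84 CPM (SD, n = 2), the highest; the gene was not called in either comparison. Macrophages had 131, 191, 183 and 183 CPM, a log2 difference, HFD minus NCD, of 0.57 ± 0.18 (edgeR adjusted p = 0.0922). Kupffer cells had 95, 61.2, 113 and 163 CPM and lipid-associated macrophages 217, 250 and 204 CPM in HFD replicates 1 and 2 and JQF, above the Kupffer cells of the same libraries. Classical monocytes had 138, 204 and 228 CPM there and nonclassical monocytes 61.9, 157, 174 and 119 CPM.

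Of the other 41 complement genes listed, 27 passed the test's count filter in macrophages, with a median log2 difference, HFD minus NCD, of -0.69 against 0.07 over all genes. Of these, 3 rose with HFD against NCD and 1 fell, 4 of 27 beside 12.7% of all genes, so the count is near the background. Itgax, a chain of complement receptor 4, rose by 2.58 ± 0.36, Cd93 by 2.51 ± 0.21 and C1qbp, a mitochondrial protein that binds C1q, by 1.09 ± 0.18 log2 (edgeR adjusted p = 0.0228, 0.0106 and 0.0274), and Cfhr2 fell by 4.24 (SE 0.82, adjusted p = 0.0341) on 17, 2 and 24 UMIs. In Kupffer cells 4 of 17 tested were called, beside 8.62% of all genes: Itgax, Cd93 and C1qbp rose too, and Cd55, the decay-accelerating factor that breaks up C3 convertases, fell by 2.15 (SE 0.48, adjusted p = 0.00611). Cd55 stood at 39.8, 0, 10.9 and 72 CPM there and rose for JQF against HFD by 3.00 ± 0.42 log2 (adjusted p = 0.000193). The highest level was that of JQF, and HFD replicate 1 had no UMI. Cd55 was the 1 of 17 called in Kupffer cells for JQF against HFD, beside 1.15% of all genes. Calls of the other complement genes were not followed through the alternatives. Itgax was a marker of the cDC2 gate, which competes with the macrophage gate for cells. What part this had in its calls was not tested. C1qbp also rose with HFD in cDC1, cDC2 and B cells, with log2 differences of 1.02 to 1.65. Of the other complement genes tested there, 1 of 15 rose in cDC1 cells, beside 12.8% of all genes called. In cDC2 cells 1 of 14 rose and 1 fell, beside 25%, and in B cells 2 of 13 rose, beside 14.5%. These counts are near or below the background. In B cells Cr2, the receptor for C3d, rose from 74.6 CPM to 185 and 180 CPM in HFD (1.21 ± 0.21 log2, adjusted p = 0.0188), with 122 CPM in JQF.

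In endothelial cells 4 of 25 tested were called for HFD against NCD, near the 15.1% of all genes: Clu and Serping1 (the C1 inhibitor) rose with HFD by 1.32 ± 0.30 and 2.78 ± 0.81 log2, and C1ra and Hc (C5) fell by 0.76 (SE 0.28) and 2.65 (SE 0.69). The edgeR adjusted p values were 0.000162, 0.00663, 0.0446 and 0.00164 in that order. Expected free RNA moved with some of these. For Clu it was 3.14, 16.7, 7.66 and 29.8 CPM against 10.3, 27.6, 28.6 and 45.7 CPM in the cells, and for Hc 2.54, 0.543, 0.513 and 0.888 CPM against 9.09, 0, 1.87 and 4.38 CPM. For Serping1 it was 1.06, 0.622, 0.781 and 1.38 CPM against 1.53, 24.6, 5.45 and 2.74 CPM, and for C1ra at most 1.07 CPM against 20.0 to 33.0 CPM. The part of free RNA in these calls was not tested. Hc rested on 0 and 11 UMIs in HFD. In T cells Clu was called for JQF against HFD, the 1 of 26 tested, beside 2.1% of all genes. Its 2.30, 4.90, 3.87 and 15.9 CPM were below the expected free RNA of 2.86, 6.77, 3.98 and 16.3 CPM in 4 of 4 libraries. In cDC2 cells C3ar1 fell with HFD on 10 to 16 UMIs. Fcnb, a ficolin of granulocyte precursors, had 0, 8, 50 and 0 UMIs in neutrophils and was called in both comparisons. It was the 1 of 12 tested in each, beside 9.38% and 0.247% of all genes. These are folds over 0 UMIs by a gene that passed the count filter through HFD. By level, among the highest in each role were C1s1, C1ra and C4a, Mbl2 and Masp2, C8g, C9 and Hc, and Vtn in hepatocytes, Fcna and Vsig4 in macrophages, Clu in epithelial cells, Cd55, Cd59a and Cr1l in endothelial cells, Itgam in neutrophils and Itgb2 in nonclassical monocytes.

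Across 48 sums of a type in a library, which share library and depth, the patterns most like each member's were found among 9221 genes by Pearson's r of log2(CPM + 1). C1qa was most like C1qc (r = 0.983) and C1qb (0.975), then Cd5l (0.939). C6 was most like Paqr9 (0.908), Vsig4 (0.852) and Marco (0.832), and C5ar1 like Pilra (0.97), Fpr2 (0.967) and Gm5150 (0.96). Cfp was nearest to Cd68 (0.889), C2 to Stard13 (0.887), C4b to Apoc1 (0.908), Cfb to Fn1 (0.896) and C3 to Rhou (0.875). For C1qb and C1qc the nearest were the other C1q genes, and no member outside the C1q genes had another member among its nearest 3.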

How the data were processed

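Single-cell 3' libraries (10x Genomics kit V3.1) were sequenced and counted by the authors against mm10. The deposited filtered and unfiltered matrices hold raw UMI counts per gene and barcode; the submitters' processing notes name Cell Ranger 6.0.1 and Seurat 4.0.3, while the headers of the filtered matrices give software version 7.0.0 and those of the unfiltered ones format version 4, so whether intronic reads were counted is not settled, which would shift levels of long genes. No counts were normalized by the authors in these files. The genes followed, the lists and the tests were chosen with earlier results of these data known.

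Barcodes needed 500 genes and could hold up to 20% of UMIs from mitochondria; 67615639 to 108062769 UMIs per library passed. Types needed 3 of 6 markers. Cells reaching 3 in several lineages were left out, which served as the doublet rule, and ties within a lineage were left ungated. Macrophages, monocytes, cDC1, cDC2 and mature dendritic cells formed the same lineage, so the rule did not remove doublets among them. Kupffer and lipid-associated macrophages needed 2 of 4 markers and more than of the other list. Types with at least 20 cells in a library were given levels and those with 50 in every library were tested: macrophages, cDC1, cDC2, neutrophils, T cells, B cells and endothelial cells; testing the Kupffer subset as well was decided after the cell numbers were seen. UMI counts summed per library and type were fitted in edgeR 4.0.16 (quasi-likelihood, TMM, filterByExpr, group only, all 4 libraries, 1 residual degree of freedom), with Benjamini-Hochberg adjustment over all genes of the type; SE is the log2 difference divided by the root of F. DESeq2 1.42.0, other scalings, filters and gates were alternatives. Free RNA was read from uncalled barcodes of 1 to 100 UMIs (6.68% to 10.5% of UMIs lay outside called cells). Exact Poisson and binomial intervals cover counting error only. All 10 members are named; of the other complement genes, those called and the highest 3 per role, except 1 gene that is not reported here. GENCODE M21 gave coordinates (32158 of 32285 identifiers matched) and RefSeq GRCm38.p6 the promoters. Python 3.11.15 and R 4.3.3 were used.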

Additional observations from a re-analysis of the deposited data

Results flagged for a closer look

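The difference between HFD and NCD in C3 had opposite signs in 2 cell types, 1.82 log2 in neutrophils and -1.39 log2 in Kupffer cells. Both HFD libraries were above NCD in the former and below it in the latter, and the difference between the types was not tested. The neutrophil call was kept in 9 of 9 alternatives and the Kupffer call in 5 of 8. DESeq2 gave C3 no adjusted p in Kupffer cells. Most of the 87 C3 UMIs of the NCD Kupffer cells came from 5 cells, as given above. C1qa was also called in opposite directions, for JQF against HFD, with 1.31 log2 in cDC2 cells and -1.78 log2 in endothelial cells. The difference between these types was not tested. The C1qa calls were kept in 3 of 9 and 3 of 8 alternatives, and DESeq2 made neither. In cDC2 cells 111 of the 137 JQF UMIs came from 5 cells, and endothelial C1qa was below the expected free RNA in 4 of 4 libraries.

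Cells left out because they carried markers of several lineages held C1q and C6 signal that no comparison used. They held 54.9% of the C1qa UMIs of all kept cells in NCD, 6.37% and 18.1% in HFD replicates 1 and 2, and 12% in JQF. Of the C6 UMIs they held 57.1%, 0.649%, 21.2% and 16.8% in the same order. With these cells assigned to the type with most markers, an alternative chosen after this was seen, C6 in macrophages differed by -2.69 log2 between HFD and NCD, against -2.56 without them. Groups of 1 and 2 libraries are too small for a test of single outlying samples.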

How the results depend on the processing

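Over the 7 tested types, 9 of 57 tests of a member in a type were called for HFD against NCD and 4 of 57 for JQF against HFD. All genes were called at 9.38% to 25% and 0% to 2.19% in these types. With expected free RNA subtracted the calls were 2 and 7 of 38, while all genes called for JQF against HFD went from 10 of 10810 to 442 of 10455 in B cells and from 261 of 11925 to 204 of 11760 in cDC2 cells. For HFD against NCD the C1q calls were lost, since too few UMIs remained, leaving C3 in neutrophils and Cfp in B cells. For JQF against HFD the calls were C1qa, C1qb, C1qc and C3 in cDC2 cells and C1qb, C3 and Cfp in B cells, all higher in JQF. For JQF against HFD the count was 0 with DESeq2, 2 with a lead of 2 markers, 2 with cells of 200 genes and 10% mitochondrial UMIs, and 1 with multi-lineage cells given to the type with most markers. In Kupffer cells the 2 calls for HFD against NCD became 0 with DESeq2, which gave only 7 members an adjusted p, C3 not among them. They became 0 with 2 UMIs per marker, 0 with the other cell filter, 3 with a lead of 2 markers and 1 with multi-lineage cells assigned. The 0 for JQF against HFD became 2 without the low count filter (C2 and C4b) and 2 with a lead of 2 markers. The causes of these shifts were not tested. Of 256 refits of 30 single differences, 215 stayed on their side of the threshold, 35 lost a call, 6 gained one and 0 changed sign. Alternatives that gave a gene no adjusted p are not among these refits. C3 in neutrophils was called in 9 of 9 alternatives (edgeR or DESeq2 adjusted p up to 0.0444); C4b in Kupffer cells in 6 of 9 (up to 0.603), Cfp in B cells in 5 of 8 (up to 0.267), and C1qa and C3 in cDC2 cells in 3 and 5 of 9. Leaving out either HFD library leaves no residual degrees of freedom, so it gave differences only: 0 of 60 changed sign and 29 moved by more than 1 SE. With free RNA from barcodes of 10 to 100 UMIs, 192 levels in place of 203 lay above it. Thinned to 2000 UMIs, the median share of neutrophils with C3 was 31.4% against 39.4%, and with C5ar1 76.7% against 85.1%. No paired analysis was possible because only HFD has more than 1 library. Levels of a few CPM in types with under 100 NCD cells are limited by depth.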
